A study of Mus musculus with 12 samples.

Results

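The Rab GTPases are the largest branch of the Ras-like small GTPases. Members were the rows of the deposited table whose symbol is Rab followed by a number, with at most 1 letter and 1 further digit after it, which selected 58 of 16411 genes. The choice used the symbol only and no measured value. A Rab switches between a GDP-bound form held in the cytosol and a GTP-bound form that sits on one kind of membrane through a lipid tail and recruits tethers, motors and other effectors there. Guanine nucleotide exchange factors (GEFs) turn a Rab on, GTPase-activating proteins (GAPs) turn it off, and GDP dissociation inhibitors (GDIs) take it back into the cytosol. In mammary epithelium Rabs route milk proteins to the apical surface and return receptors, integrins and junction proteins to the plasma membrane.

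The RNA libraries came from 6 tumors of the mammary gland and 6 pieces of benign gland. All mice were MMTV-Neu-NDL-YD5 transgenic females on an FVB background, heterozygous for the transgene, so that tumor and benign tissue alike carried an activated Neu (rat HER2) allele driven by the mouse mammary tumor virus promoter, which is active mainly in mammary epithelium. No treatment was given, and the age of each sequenced mouse is not given in the sources used here. Benign tissue was mammary tissue free of visible tumor, taken far from any tumor site, and for sequencing it came from other mice than the tumors, so it is neither wild-type tissue nor a matched sample. The question is how transcript levels of this family differ between both tissues.

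Total counts per sample ranged from 5240853 to 8588567. Values are counts scaled to library size (CPM) with edgeR's TMM factors, and 3 counts correspond to 0.414 CPM at the mean library size. Erbb2, the gene of HER2, was higher in all 6 tumors than in any benign sample (adjusted p = 1.6e-07 by edgeR's quasi-likelihood test), as the labels require. Of 11 luminal epithelial markers 8 were higher and 1 (Krt19) was lower in tumors, none was at 0 in any sample, and their summed level was 1034 to 3050 CPM in benign tissue and 3371 to 5319 CPM in tumors. All 6 fibroblast markers were lower in tumors (summed level 4528 to 12462 against 488 to 1159 CPM), as were all 9 adipocyte markers (9519 to 20645 against 30.0 to 133 CPM), all 6 basal and myoepithelial markers (533 to 1270 against 27.8 to 103 CPM) and all 5 endothelial markers (505 to 937 against 74.8 to 90.2 CPM). Skeletal muscle markers summed to 58834, 37908 and 96941 CPM in benign samples 3, 4 and 6, to between 20.2 and 387 CPM in the other benign samples, and to at most 162 CPM in tumors, where 12 of the 14 markers were at 0 in at least 1 sample. Brown fat markers were also highest in benign samples 4 and 6 (2977 and 814 CPM, against 36.5 to 179 CPM in the other benign samples). Adipocyte markers were highest in the same samples (20645 and 17396 CPM), but benign sample 3 had the lowest benign sum (9519 CPM). Fits without benign samples 3, 4 and 6 leave out the high muscle sums and these highest values together, and their parts cannot be told apart. Benign samples 1, 2 and 5, which stay in, had adipocyte sums of 9702, 12591 and 11476 CPM. Leukocyte markers summed to 1681 CPM in benign sample 1 and to between 320 and 554 CPM in the other benign samples. In such bulk samples fewer cells of a type and less RNA per cell cannot be told apart.

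The expression filter kept 51 of the 58 members, and edgeR's quasi-likelihood test with Benjamini-Hochberg adjustment over 13191 genes called 26 of them at an adjusted p under 0.1, 13 higher and 13 lower. The number of falls depended on single samples and on scaling, with 8 falls without tumor sample 2 or without tumor sample 5, 14 rises and 9 falls on total counts, and 14 rises and 7 falls without benign samples 3, 4 and 6. The 26 calls are 51.0% of the tested members, while 63.0% of all tested genes were called. The rises made up 25.5% of members against 28.2% of all genes, and the falls made up 25.5% against 34.8%. The median log2 fold change was 0.04 over members and -0.06 over all genes. Among larger changes, 9 called members exceeded a log2 fold change of 1 (17.6%, background 11.1%) and 3 lay below -1 (5.88%, background 21.0%). All tumors lay above all benign samples for 6 tested members (11.8%, background 14.7%) and below them for 6 others (11.8%, background 21.2%). These shares describe the family, and none was tested as a list.

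**Figure D1:**
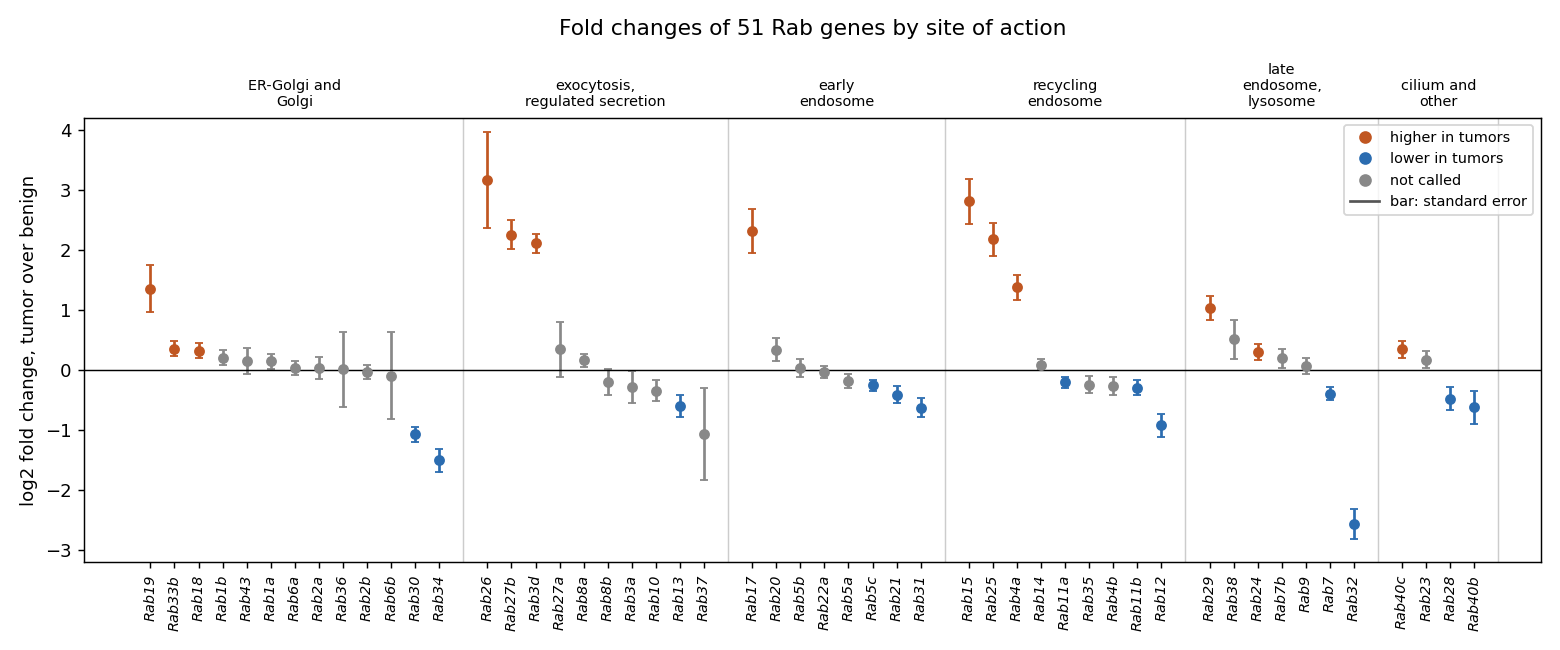
Log2 fold change (tumor over benign, vertical axis) of the 51 tested Rab genes, ordered by size within 6 sites of action; points are edgeR estimates from 6 samples per group, bars are standard errors, and colour gives the call at an adjusted p under 0.1. The 13 rises reach 3.18 (Rab26) and the 13 falls reach -2.56 (Rab32), and each site of action holds members of both directions.

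Rabs of the recycling endosome return internalised cargo to the plasma membrane. Of 9 members 3 rose (Rab15, Rab25 and Rab4a), 3 fell (Rab12, Rab11b and Rab11a), and Rab14, Rab35 and Rab4b did not pass the test, so that 66.7% were called, near the 63.0% over all genes. Rab15, which acts in sorting and recycling of receptors such as the transferrin receptor, had 22.7, 51.1 and 92.6 CPM as its lowest, median and highest value in benign tissue and 208, 371 and 564 CPM in tumors. The highest benign sample thus stayed well under the lowest tumor, although the values within each group spread widely. Its log2 fold change was 2.81 ± 0.38 (SE, adjusted p = 3.6e-05), from a mean of 54.5 ± 27.5 to 384 ± 148 CPM (SD, n = 6). Rab25, the epithelial relative of Rab11 that serves apical recycling and integrin traffic, ran from 11.2 through a median of 26.2 to 42.1 CPM in benign tissue and from 100.2 through 124 to 140.0 CPM in tumors. The groups did not overlap, and the tumors were the tighter group, with a highest value 1.40 times the lowest against 3.76 times in benign tissue. The log2 fold change of Rab25 was 2.18 ± 0.27 (SE, adjusted p = 2e-05). Rab4a, a Rab of the fast route from early endosomes back to the surface, had 20.8, 31.8 and 49.5 CPM in benign tissue and 70.2, 90.4 and 99.6 CPM in tumors. Here too no tumor reached down to a benign sample, and the log2 fold change was 1.38 ± 0.21 (SE, adjusted p = 8.8e-05).

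The promoter of Rab25 is shown because this gene had the largest rise among members of the Rab11 subfamily. The sequence covers the 250 bases upstream of its RefSeq transcription start on the minus strand of GRCm38.p6 (chr3:88548280-88548529), and capitals mark a cAMP response element, TGACGTCA, the single match among 5 motifs searched.
Rab25: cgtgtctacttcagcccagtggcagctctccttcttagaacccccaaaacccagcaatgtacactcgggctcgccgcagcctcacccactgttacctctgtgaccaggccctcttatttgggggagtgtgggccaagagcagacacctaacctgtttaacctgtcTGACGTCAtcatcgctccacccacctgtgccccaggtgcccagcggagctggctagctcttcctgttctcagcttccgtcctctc
The element was present in 1.55% of 32851 RefSeq promoters of this length and in 2 of 59 promoters of Rab genes (3.39%), those of Rab25 and Rab5a. The other motifs searched, on both strands, were the ETS core CCGGAAG (3 of 59 Rab promoters, 6.91% of all), the E-box CACGTG (5 of 59, 6.02% of all), TATAAA (4 of 59, 12.4% of all) and the Grainyhead-like motif AACCGGTT (0 of 59, 0.116% of all). The set of 59 Rab promoters covered 47 of the 58 members, with a median GC content of 60.4% against 52.4% over all promoters. The remaining members were left out of this set, so its motif counts and GC content do not describe them. The set held 9 members called higher and 12 called lower. The selection behind it was not applied to the set of all promoters, which limits the comparison of both. Their absence does not mean that they lack a RefSeq promoter. A match describes the letters of the window and not a bound site.

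Rab12, which moves the transferrin receptor from recycling endosomes towards lysosomes, was the recycling member with the largest fall. Its lowest, median and highest values were 63.1, 82.5 and 138 CPM in benign tissue and 39.4, 48.5 and 59.0 CPM in tumors, without overlap. The log2 fold change was -0.92 ± 0.19 (SE, adjusted p = 0.0013). The 3 benign samples with skeletal muscle transcripts held its highest values (94.6, 114 and 138 CPM against 63.1 to 70.3 CPM in the others), and without them the log2 fold change was -0.44 (adjusted p = 0.018). Rab11a and Rab11b, the Rabs of the slow, perinuclear recycling route, differed little, with log2 fold changes of -0.20 (adjusted p = 0.078) and -0.29 (adjusted p = 0.058). Over 12 refits with a single sample removed, Rab11a lost its call in 10 and Rab11b in 7. Rab14, which connects the Golgi with endosomes, had a log2 fold change of 0.09 (adjusted p = 0.42). Rab35, a fast recycling Rab, had -0.24 (adjusted p = 0.16), and -0.31 with an adjusted p of 0.013 without tumor sample 1.

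**Figure D2:**
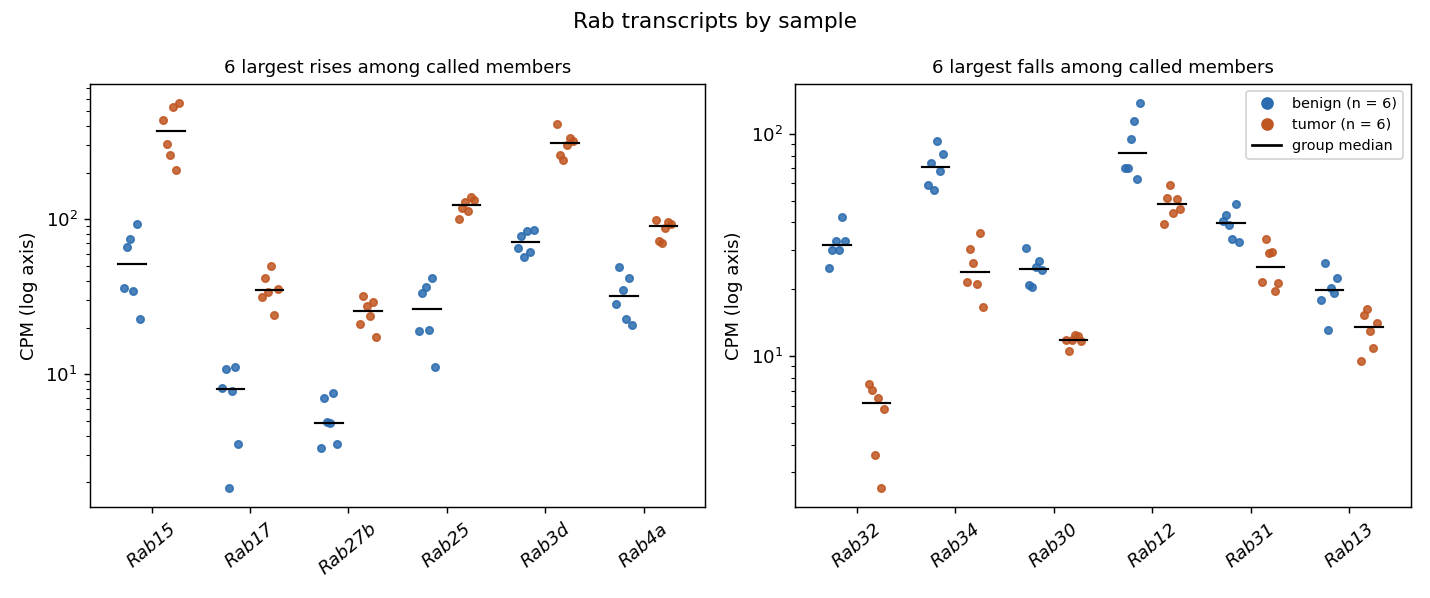
CPM (log axis) in each of 6 benign and 6 tumor samples for the 6 called Rabs with the largest rises (left) and the 6 with the largest falls (right) among those with a mean of at least 10 CPM in the higher group; bars are medians. The groups do not overlap for any of the rises nor for Rab32, Rab34, Rab30 and Rab12, and they overlap for Rab31 and Rab13.

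None of these 12 members shares exonic bases with another gene of the GENCODE M21 annotation.

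Among the Rabs of exocytosis and regulated secretion, which dock and release secretory vesicles and granules, 3 of 10 tested members rose (Rab26, Rab27b and Rab3d) and 1 fell (Rab13). The share called was thus below the 63.0% over all genes, and the share that rose was near the 28.2% over all genes. Rab3d, the Rab3 isoform of zymogen and other exocrine granules, had 57.1, 71.3 and 85.6 CPM as lowest, median and highest benign value and 242, 311 and 412 CPM in tumors. Both groups were tight and far apart. The log2 fold change was 2.12 ± 0.16 (SE, adjusted p = 2e-07), the smallest adjusted p of any member. Rab27b, which tethers secretory granules and multivesicular bodies at the plasma membrane, ran from 3.33 through 4.85 to 7.62 CPM in benign tissue and from 17.3 through 25.5 to 31.9 CPM in tumors, again without overlap. Its log2 fold change was 2.25 ± 0.24 (SE, adjusted p = 4.8e-06). Its paralog Rab27a, better known from melanosomes and lytic granules, was not called (0.35, adjusted p = 0.55), with 44.1 CPM in tumor sample 5 and between 6.61 and 19.3 CPM in the other tumors.

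Rab26, a granule Rab of acinar cells, had the largest log2 fold change of the family at 3.18 ± 0.80 (SE, adjusted p = 0.0043), but at a low level. It had 0 to 2.78 CPM in benign tissue (median 0.489) and 2.48 to 16.8 CPM in tumors (median 4.17), and its lowest tumor lay under benign sample 1. Its log2 fold change was 4.27 without that sample and 2.70 without tumor sample 1, and it was 2.48 without benign samples 3, 4 and 6. It was called in all 3 fits. In the GENCODE M21 annotation 173 exonic bases of Rab26 lie within Traf7 on the same strand, so how reads were split between both genes is uncertain. Rab13, which traffics to tight junctions, had 13.2, 19.8 and 26.4 CPM in benign tissue and 9.5, 13.6 and 16.2 CPM in tumors. The ranges overlapped in part, and the log2 fold change was -0.60 ± 0.19 (SE, adjusted p = 0.016). Rab10, a Rab of basolateral exocytosis and of GLUT4 vesicles, was not called (-0.34, adjusted p = 0.12), and its benign samples with skeletal muscle transcripts (308, 251 and 386 CPM) lay above all others (184 to 215 CPM). Rab8a, Rab8b, Rab3a and Rab37 did not pass the test either, with log2 fold changes of 0.16, -0.20, -0.28 and -1.06. The values of Rab37 and Rab8b rested on benign sample 1, where they had 19.1 and 65.4 CPM, and without it their signs turned, to 0.62 and 0.11 (adjusted p = 0.16 and 0.53). The promoter of Rab3d, 250 bases on the minus strand at chr9:21918184-21918433 of GRCm38.p6, is shown as that of the secretory member with the most certain rise. It held none of the 5 motifs, so no letters are capitalised, and its GC content was 69.2% with 18 CpG dinucleotides.
Rab3d: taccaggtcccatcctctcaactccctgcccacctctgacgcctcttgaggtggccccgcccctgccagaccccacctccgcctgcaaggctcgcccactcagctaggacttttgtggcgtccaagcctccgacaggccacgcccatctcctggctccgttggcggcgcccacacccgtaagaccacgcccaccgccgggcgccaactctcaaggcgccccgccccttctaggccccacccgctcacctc

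Rabs of the early endosome, the first sorting station after endocytosis, held 3 falls and 1 rise among 8 tested members, and the rise had the largest log2 fold change of the group. The share called was below the 63.0% over all genes, and the share that fell was near the 34.8% over all genes. Rab17, found in polarised epithelia where it acts in transcytosis and apical recycling, had 1.85, 8.0 and 11.1 CPM as lowest, median and highest value in benign tissue and 24.0, 34.7 and 49.9 CPM in tumors. No tumor overlapped benign tissue, and the log2 fold change was 2.32 ± 0.37 (SE, adjusted p = 0.00015). Rab31, which carries cargo between the trans-Golgi network and endosomes, ran from 32.8 through 39.7 to 48.4 CPM in benign tissue and from 19.6 through 25.2 to 33.7 CPM in tumors. All tumors but 1 lay below the lowest benign sample, with a log2 fold change of -0.62 ± 0.16 (SE, adjusted p = 0.0047). Rab21, a Rab of integrin endocytosis, fell by 0.41 (adjusted p = 0.024) and Rab5c, an isoform of the central early endosome Rab, by 0.25 (adjusted p = 0.042) on the log2 scale. Neither call held without the 3 benign samples with skeletal muscle transcripts (adjusted p = 0.28 and 0.19), and Rab5c also lost its call in 7 of 12 fits without 1 sample. The other Rab5 isoforms, Rab5a and Rab5b, did not pass the test (-0.18 and 0.04), nor did Rab20 (0.34) and Rab22a (-0.03).

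In the biosynthetic route from the endoplasmic reticulum through the Golgi, 3 of 13 tested members rose and 2 fell, and the most abundant members did not pass the test. The share called was 38.5%, against 63.0% over all genes. Rab34, a Golgi Rab also needed for cilium formation, had 56.2, 71.0 and 92.6 CPM in benign tissue and 16.6, 24.0 and 35.9 CPM in tumors. Every tumor was below every benign sample, with a log2 fold change of -1.50 ± 0.19 (SE, adjusted p = 2.4e-05). Rab30, which sits on Golgi membranes, went from 20.4, 24.8 and 30.6 CPM to 10.6, 11.8 and 12.4 CPM, also without overlap. The log2 fold change was -1.07 ± 0.13 (SE, adjusted p = 1.4e-05). Rab19, another Golgi Rab, rose by 1.36 on the log2 scale (adjusted p = 0.0091) at a low level, with 1.24 to 8.89 CPM in benign tissue and 5.92 to 11.9 CPM in tumors, and overlapped through benign sample 1. Rab33b, a Golgi Rab that binds the autophagy protein ATG16L1, and Rab18, a Rab of the endoplasmic reticulum and lipid droplets, rose by 0.36 (adjusted p = 0.028) and 0.33 (adjusted p = 0.034).

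Rab1b and Rab1a, which act in transport from the endoplasmic reticulum to the Golgi, were among the most abundant members per length, with mean levels over all samples of 111 and 95.7 CPM per kb of exon. Rab1b had 168, 196 and 254 CPM in benign tissue and 193, 245 and 266 CPM in tumors, and Rab1a had 200.3, 261 and 285 CPM against 219, 288 and 330 CPM. The ranges overlapped, and neither gene passed the test (log2 fold changes 0.21 and 0.15, adjusted p = 0.17 and 0.32). Rab1b was called higher in 3 of 12 fits without 1 sample and Rab1a in 1 of them, that without tumor sample 5. Rab43 shares 4164 exonic bases with Gm45140 on the same strand, so its level is uncertain. Rab2a, Rab2b, Rab6a, Rab6b, Rab36 and Rab43 were not called and had log2 fold changes between -0.09 and 0.15. Over the family, 12 of the 15 members with the highest level per kb lay within 0.5 of 0 on the log2 fold change scale, and 21 of the other 36 tested members did.

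**Figure D3:**
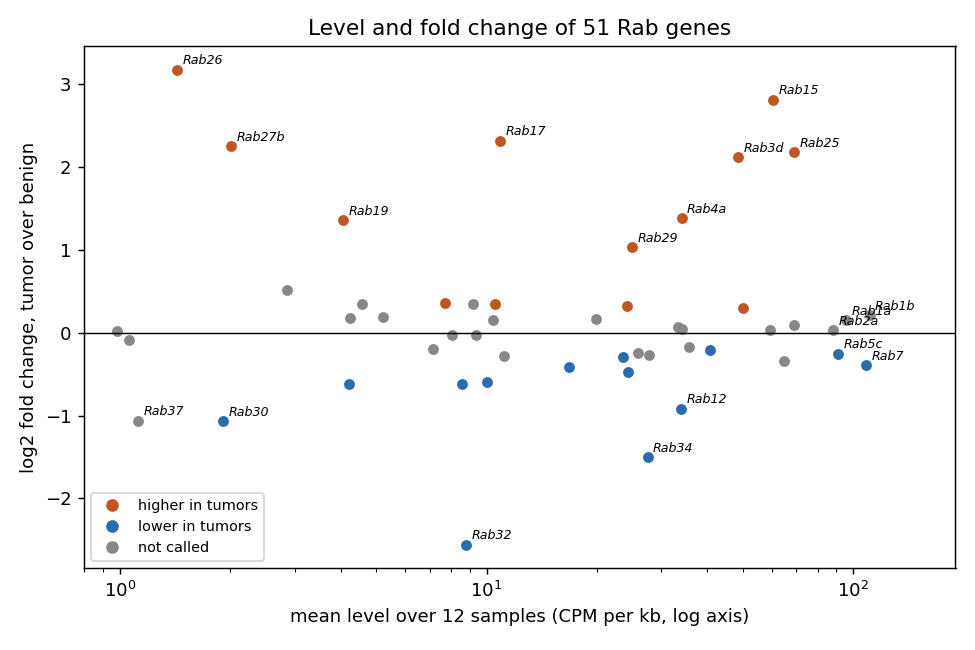
Mean level over 12 samples (CPM per kb of exon, log axis) against the log2 fold change of tumor over benign for the 51 tested Rab genes, coloured by call. Rab1b (111) and Rab7 (108 CPM per kb) lie at the right near 0, while Rab15 and Rab25 combine a high level with log2 fold changes of 2.81 and 2.18.

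Late endosomes, lysosomes and lysosome-related organelles held the largest fall of the family. Rab32, which brings cargo to melanosomes and other lysosome-related organelles and also acts at mitochondria, had 25.0, 31.6 and 42.3 CPM as lowest, median and highest benign value and 2.56, 6.15 and 7.47 CPM in tumors. The ranges were far apart, the means differed 5.88-fold, and the log2 fold change was -2.56 ± 0.25 (SE, adjusted p = 2.4e-06). Its closest paralog, Rab38, did not pass the test (0.51, adjusted p = 0.19). Rab7, which drives maturation and fusion of late endosomes and had the level next to that of Rab1b at 108 CPM per kb, ran from 283 through 312 to 381 CPM in benign tissue and from 221 through 245 to 258 CPM in tumors. The groups did not overlap, but the change was small, with a log2 fold change of -0.39 ± 0.11 (SE, adjusted p = 0.0073), and it was -0.18 (adjusted p = 0.15) without the 3 benign samples with skeletal muscle transcripts, in which Rab7 was highest (336, 356 and 381 CPM). Rab29, a Rab of the trans-Golgi network and stressed lysosomes that recruits the kinase LRRK2, rose from 22.1 ± 4.17 to 45.4 ± 13.5 CPM (SD, n = 6, log2 fold change 1.04, adjusted p = 0.00074), and 5 of 6 tumors exceeded every benign sample. Rab24, linked to autophagy, rose by 0.30 (adjusted p = 0.07), and 775 of its exonic bases overlap Prelid1 on the opposite strand, while the strand setting of the counting is not given in the sources used here. Rab9 (0.07) and Rab7b (0.20) did not pass the test.

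The upstream window of Rab32, at chr10:10558208-10558457 on the minus strand of GRCm38.p6, is shown as that of the member with the largest fall. None of the 5 motifs was found in it, and it held 5 CpG dinucleotides at a GC content of 55.6%.
Rab32: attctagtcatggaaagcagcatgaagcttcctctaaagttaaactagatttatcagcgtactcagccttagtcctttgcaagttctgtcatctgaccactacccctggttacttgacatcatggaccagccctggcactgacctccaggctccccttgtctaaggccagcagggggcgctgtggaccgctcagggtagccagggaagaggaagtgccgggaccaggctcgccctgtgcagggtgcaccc

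Of the remaining Rabs, placed at the cilium or at other sites, Rab40c rose by 0.35 (adjusted p = 0.054), and Rab40b (-0.62, adjusted p = 0.077) and Rab28 (-0.48, adjusted p = 0.048) fell on the log2 scale. Rab40 proteins are unusual in carrying a SOCS box that binds a ubiquitin ligase, and Rab28 is a ciliary Rab. None of these calls held without the 3 benign samples with skeletal muscle transcripts, where Rab28 had its highest values (56.9, 57.4 and 70.5 CPM against 33.3 to 41.6 CPM in the other benign samples) and its log2 fold change became -0.01. Rab23, a regulator of Hedgehog signalling, did not pass the test (0.18, adjusted p = 0.31). The 7 members under the expression filter were Rab3b, Rab9b, Rab33a, Rab39, Rab39b, Rab42 and Rab44, each with a mean of at most 1.77 CPM in either group. Rab3b had at most 2 counts in any benign sample and 3 in any tumor, and Rab33a at most 4 and 2, so no fold change is given for either. Rab42 was the one untested member whose groups did not overlap, with 1.06 to 3.87 CPM in benign tissue and 0.135 to 1.02 CPM in tumors.

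Summed over their members, the recycling and the exocytic group lay higher in every tumor than in any benign sample. The 9 recycling Rabs summed to 723, 794 and 824 CPM as lowest, median and highest benign value and to 989, 1154 and 1398 CPM in tumors. The 11 exocytic Rabs summed to 442, 501 and 641 CPM against 651, 705 and 834 CPM. Single members weighed heavily in both sums, since the mean of Rab15 went from 54.5 to 384 CPM and that of Rab3d from 71.8 to 312 CPM. Late endosomal Rabs covered 459 to 568 CPM in benign tissue and 403 to 462 CPM in tumors, and the early endosomal (633 to 803 against 590 to 687 CPM) and Golgi groups (976 to 1239 against 1002 to 1224 CPM) overlapped broadly. All 58 members together summed to 3395, 3611 and 4191 CPM in benign tissue and to 3848, 4298 and 4501 CPM in tumors. The sums were not tested.

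**Figure D4:**
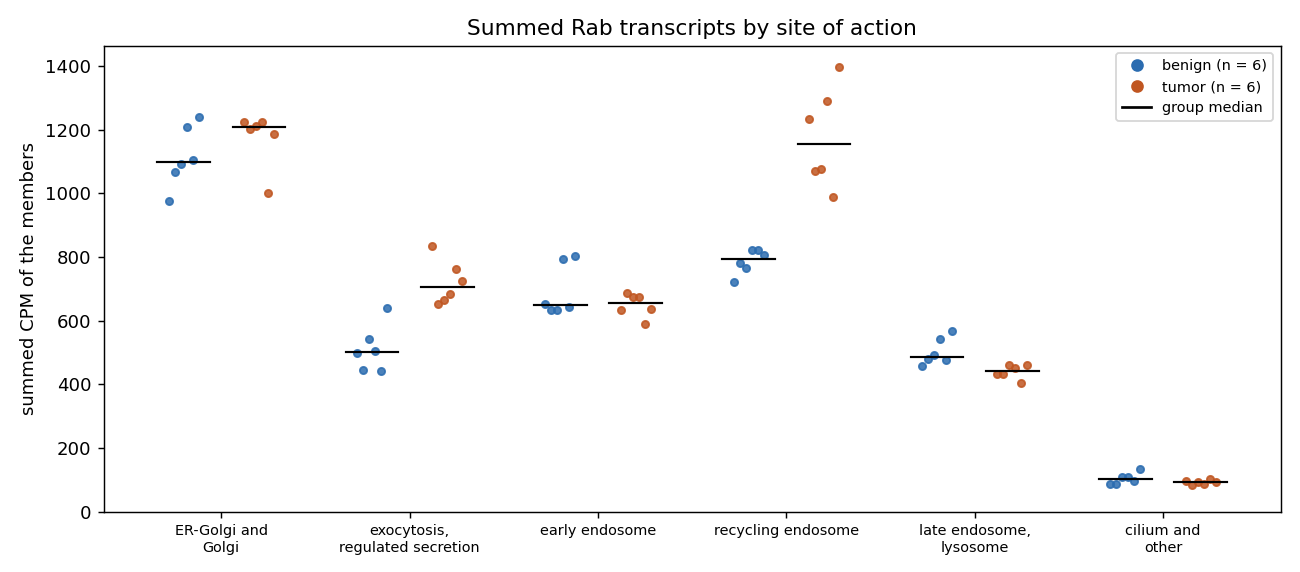
Summed CPM of the Rab members at each of 6 sites of action in 6 benign and 6 tumor samples, with medians as bars. Recycling (989 to 1398 against 723 to 824 CPM) and exocytosis (651 to 834 against 442 to 641 CPM) separate the tissues, with tumors above, and the ranges of the other sites overlap.

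Within a subfamily of close paralogs, each member's share of the summed CPM per kb was compared by sample. Shares did not overlap between tissues in 4 of 13 subfamilies. The shares of a subfamily are bound together, so a change in any paralog shifts the others. No such count was made for other gene families, so this number has no background. Rab25 made up 11.9 to 36.1% of Rab11a, Rab11b and Rab25 together in benign tissue and 62.8 to 70.5% in tumors, while the share of Rab11a went from 40.4 to 57.9% down to 19.9 to 25.3%. In the Rab3 subfamily Rab3d held 50.7 to 69.0% of the level in benign tissue and 85.9 to 91.7% in tumors. Rab4a went from 27.0 to 47.9% of Rab4 to 58.5 to 70.7%, and so passed Rab4b in every tumor. Rab32 made up 82.6 to 94.3% of Rab32 with Rab38 in benign tissue and 26.2 to 51.0% in tumors. The log2 fold changes of Rab11a (-0.20) and Rab11b (-0.29) were themselves small, and Rab3a (-0.28), Rab4b (-0.27) and Rab38 (0.51) were not called. In the Rab27 pair the median share of Rab27b was 16.2% in benign tissue and 49.8% in tumors, but the ranges met (5.85 to 24.5% and 21.8 to 61.2%) through tumor sample 5. The shares of Rab1, Rab2, Rab5, Rab6 and Rab8 isoforms overlapped between tissues, Rab1a for example holding 42.5 to 50.5% of Rab1 in benign tissue and 43.4 to 48.0% in tumors. Rab4b shares 1016 exonic bases with the annotated read-through gene Gm21983, so its own level is uncertain. With plain counts in place of counts per length the number of subfamilies was also 4.

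**Figure D5:**
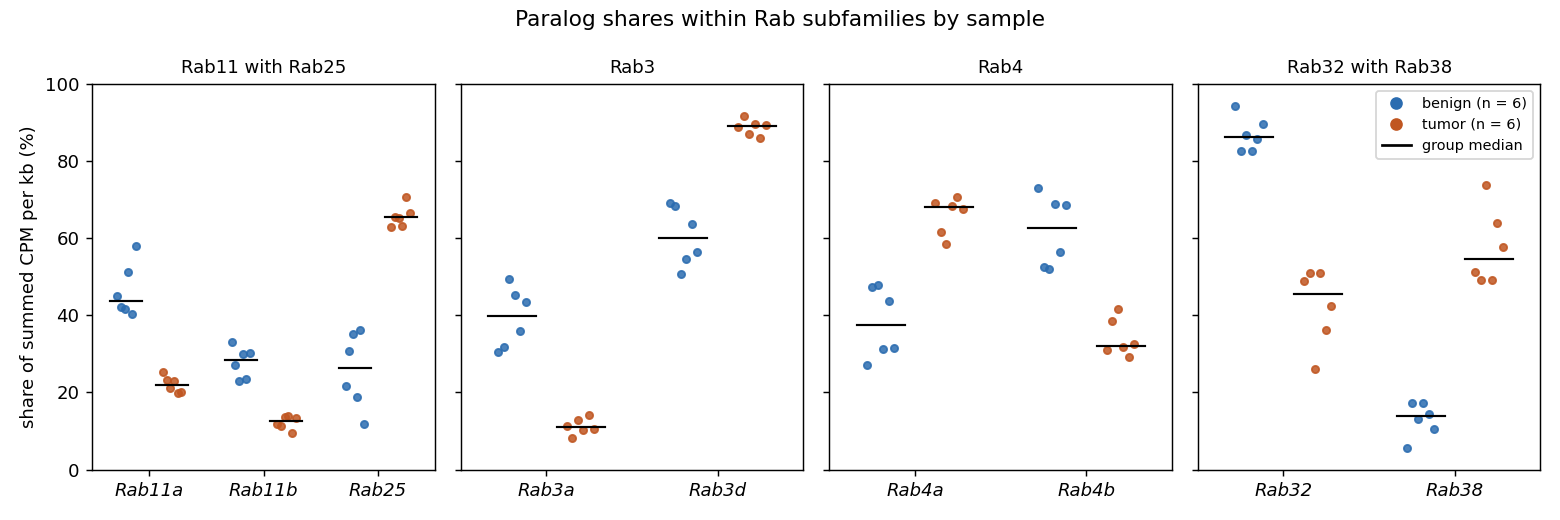
Share of each paralog in the summed CPM per kb of its subfamily (vertical axis, percent) in 6 benign and 6 tumor samples, with medians as bars, for the 4 subfamilies whose shares do not overlap between tissues; Rab3b, at most 0.463% of the Rab3 subfamily, is not drawn. Rab25, Rab3d and Rab4a take the larger share in all tumors (at least 62.8, 85.9 and 58.5%), and Rab32 drops to at most 51.0%.

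The summed luminal markers were, like the 6 rises with values by sample, higher in every tumor than in any benign sample, and these levels were therefore also set against that sum in each sample. In tumors ordered from the lowest to the highest luminal sum, Rab15 had 439, 564, 259.6, 208, 529.9 and 304 CPM. This order is given for Rab15 only, and a relation to the luminal sum was not tested. Per 1000 CPM of luminal marker, Rab15 (17.2 to 36.9 CPM in benign tissue against 41.6 to 138 CPM), Rab25 (9.68 to 17.9 against 21.6 to 32.5 CPM) and Rab27b (2.29 to 3.43 against 4.23 to 6.23 CPM) still lay above benign tissue in every tumor. Rab17, Rab3d and Rab4a overlapped on that scale, with ratios of tumor to benign medians of 2.17, 1.71 and 0.98. The luminal sum includes Krt19, which fell (log2 fold change -4.74), while the 8 markers called higher rose by 0.90 (Elf5) to 2.24 (Epcam). These ratios therefore depend on the markers in the sum. Of the 6 falls with values by sample, Rab32 (2.42 to 6.65 against 3.12 to 13.3 CPM) and Rab34 (5.94 to 20.5 against 19.9 to 56.5 CPM) overlapped per 1000 CPM of fibroblast marker. Rab30, Rab12, Rab31 and Rab13 lay above benign tissue in every tumor per fibroblast marker, as did all 6 rises. Per luminal marker all 6 falls lay below benign tissue in every tumor, and per adipocyte marker above it. The mean luminal sum in tumors was 2.29 times that of benign tissue. The mean fibroblast and adipocyte sums in tumors were 0.095 and 0.0052 times the benign ones. The side on which the falls lie is therefore set largely by the marker sums, so these ratios cannot show the part of cell composition. The part of cell composition in these changes was not tested.

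The genes that regulate and read out Rabs were counted from lists of 131 genes, of which 128 were in the table and 125 were tested. Of these 53 rose and 28 fell (64.8% called, background 63.0%), with a median log2 fold change of 0.24. The effectors, which bind the GTP form, had 24 of 47 tested genes higher and 11 lower (51.1% and 23.4%, against 28.2% and 34.8% over all genes), with a median of 0.51. GAPs had 16 higher and 7 lower of 36 (44.4% and 19.4%), and GEFs had 12 higher and 9 lower of 35 (34.3% and 25.7%). Among the 7 genes of prenylation and GDI, Chm, the escort protein that presents new Rabs for prenylation, rose (24.3 ± 4.68 to 38.0 ± 6.46 CPM, log2 fold change 0.65, adjusted p = 0.0031), and Gdi2, a GDI, fell (420 ± 16.6 to 298 ± 23.4 CPM, -0.49, adjusted p = 0.00067), both without overlap. Outside the family, 4 of 26 Arf GTPases were higher and 10 lower (15.4% and 38.5%, against 28.2% and 34.8% over all genes).

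The effectors with values by sample follow. Exph5, a Rab27 effector of exocytosis, had 0 to 1.37 CPM in benign tissue, and its tumors lay between 7.13 and 23.9 CPM (4.41 on the log2 scale, adjusted p = 1.6e-05). Sytl3, a synaptotagmin-like Rab27 effector, rose from a range of 0.791 to 5.0 CPM to between 16.5 and 70.4 CPM (3.87, adjusted p = 1.8e-05). Myrip, which links Rab27a to myosin, had 6.30 to 13.2 CPM in benign tissue and 0.256 to 0.439 CPM in tumors (-4.76, adjusted p = 1.9e-08), and Ehbp1l1, a Rab8 effector, had 115 to 339 CPM against 13.7 to 35.8 CPM (-3.07, adjusted p = 4.8e-06). None of these ranges overlapped. Further effectors, chosen after their values were seen, were Mlph, the Rab27 effector melanophilin (log2 fold change 2.16, adjusted p = 1.9e-05), Myo5b, the myosin motor of Rab11 and Rab25 (2.33, adjusted p = 2.3e-05), Myo5c, the epithelial myosin V (2.02, adjusted p = 1.7e-05), and Rab11fip1, an effector of Rab11 and Rab25 (1.35, adjusted p = 0.0015). Myo5a, the third myosin V, fell by 1.29 on the same scale (adjusted p = 7e-06). Other members of these effector families did not pass the test, among them Unc13d (0.74, adjusted p = 0.28), Sytl4 (0.23, adjusted p = 0.29), Rab11fip5 (0.17, adjusted p = 0.66), Sytl2 (0.10, adjusted p = 0.90) and Rab11fip3 (-0.10, adjusted p = 0.68).

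Of the GEFs, Rin2, an activator of Rab5, rose from a benign range of 90.1 to 159 CPM to between 234 and 435 CPM (1.51 on the log2 scale, adjusted p = 3.6e-05), and Dennd2d, a DENN-domain GEF, rose from 15.1 to 69.5 CPM to between 83.8 and 90.1 CPM (1.47, adjusted p = 0.00095). Dennd2a fell from 32.2 to 57.1 CPM to between 2.49 and 4.69 CPM (-3.75, adjusted p = 1.3e-08). Dennd1c was called lower (-2.94, adjusted p = 0.011) on overlapping ranges, with 101 CPM in benign sample 1 and a benign median of 5.99 CPM. Among GAPs, Tbc1d30 (benign range 3.91 to 9.74 CPM, tumor range 49.1 to 82.7 CPM, a log2 change of 3.05, adjusted p = 1.5e-07) and Tbc1d8b (8.91 to 15.4 against 36.7 to 73.4 CPM, 2.15, adjusted p = 6.7e-07) rose most. Tbc1d2, a GAP of Rab7, fell (9.10 to 14.3 against 1.41 to 8.55 CPM, -1.38, adjusted p = 0.0032). Tbc1d10c was called lower (-3.65, adjusted p = 0.013) through 114 CPM in benign sample 1, the benign median being 3.14 CPM, and its log2 fold change was -0.75 without that sample, as that of Dennd1c was -1.01. Leukocyte markers were highest in the same sample, and their part in these calls was not tested.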

How the data were processed

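RNA of 12 samples was poly A enriched and sequenced by the authors with a directional kit. Per the submitters' processing notes reads were trimmed with Trim Galore and quantified with Salmon on mm10 (versions, annotation and strand setting are not given in the sources used here), and the authors deposited counts per gene as whole numbers, not scaled for depth. Samples were grouped by their labels. Here the deposited counts were filtered (filterByExpr, minimum count 10, minimum total 15), scaled by TMM and compared in R 4.3.3 with edgeR 4.0.16 (quasi-likelihood test, two-sided, Benjamini-Hochberg over 13191 genes) and called at an adjusted p under 0.1, as the study did. The p-values set the difference between both groups against the spread between these samples. In benign tissue that spread includes the differing skeletal muscle content. Every replicate pair differed by more than counting noise (chi-square per degree of freedom at least 12.5). The fit was tested on simulated data with 100 changed genes of each size among 13191, far fewer than were called here. There edgeR recovered 73% of log2 changes of 1 and 98% of those of 2. False calls made up 8.06% of its calls, against 23.6% of those of DESeq2. Exon lengths came from GENCODE M21 and promoters from RefSeq (GRCm38.p6).

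The members and the role, regulator and marker lists were chosen with earlier results of these data known. Every called member is named, and values by sample are given for the called members with the 6 largest rises and falls at a mean of at least 10 CPM in the higher group, the 3 highest levels per length and members at 3 counts or fewer throughout a group, and for the regulator lists the 2 largest rises and falls of each at the same minimum. Alternatives were DESeq2 1.42.0, other scalings and filters, a threshold of 0.05, a replicate block, leaving out single samples and, chosen after seeing the data, leaving out benign samples 3, 4 and 6. The labels name no batch.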

Additional observations from a re-analysis of the deposited data

Results flagged for a closer look

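Of 102 sets of 6 values (51 tested members in 2 groups) 12 held a sample farther from the other 5 than Dixon's 95% critical value allows, 7 in benign tissue and 5 in tumors. Chance alone flags about 1 in 20 groups. None of these values was followed up with a test.

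Benign sample 1 held 6 of the 12 values. It was the highest of its group for Rab37 (19.1 CPM, next 1.60), Rab8b (65.4 CPM, next 34.4), Rab43 (93.9 CPM, next 56.1), Rab19 (8.89 CPM, next 3.50) and Rab26 (2.78 CPM, next 0.528), and the lowest for Rab1a (200 CPM, next 257). Rab37 and Rab8b are exocytic Rabs, and without this sample their log2 fold changes turned from -1.06 to 0.62 and from -0.20 to 0.11, neither called. Leukocyte markers summed to 1681 CPM in this sample against 320 to 554 CPM in the other benign samples, and mast cell and platelet markers to 168 CPM against 124 to 219 CPM. Kit held most of the latter sum (benign means 97.7 of 166 CPM). It rose in tumors (log2 fold change 2.86) while Cpa3, Pf4, Tpsb2 and Mcpt4 fell, so this sum is a weak measure of mast cells and platelets. Without it edgeR called Rab43 higher in tumors (0.44 on the log2 scale, adjusted p = 0.022), and 4164 of its exonic bases lie within Gm45140 on the same strand.

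In tumor sample 5, Rab2a was the lowest tumor value (95.8 CPM, next 198) and Rab27a the highest (44.1 CPM, next 19.3). In tumor sample 1, Rab35 (97.9 CPM, next 65.4) and Rab28 (46.5 CPM, next 35.0) were the highest. Rab30 was lowest in tumor sample 2 (10.6 CPM, next 11.7), within a group whose whole range was 10.6 to 12.4 CPM. Rab20 was lowest in benign sample 6 (6.75 CPM, next 11.1).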

How the results depend on the processing

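None of the 26 called members reversed its direction under any alternative, while 13 of the 25 uncalled members changed sign under at least 1 of them, Rab37 among them (-1.06, and 0.62 without benign sample 1). The count of 13 higher and 13 lower Rabs became 15 and 14 with DESeq2, 13 and 13 with upper-quartile scaling, 14 and 9 with total counts, 16 and 10 when any gene with 1 count was kept, 13 and 11 when each sample needed 10 counts, and 11 and 10 at an adjusted p under 0.05. Leaving out 1 sample gave 12 to 17 higher and 8 to 14 lower Rabs, with 8 lower without tumor sample 2 and without tumor sample 5. Without benign samples 3, 4 and 6 there were 14 higher and 7 lower, and 8 calls were lost (Rab5c, Rab7, Rab11a, Rab11b, Rab21, Rab28, Rab40b and Rab40c); this fit has fewer samples, and the cause was not tested. Among members with a mean of at least 10 CPM in the higher group, the 6 largest rises and the 6 largest falls kept their calls under every alternative. Rab26, below that level, kept its call wherever it was tested. Single-sample fits gave 51 to 61 higher and 25 to 30 lower regulators and effectors, and 4 to 5 subfamilies with separate shares. DESeq2 also called the unfiltered Rab42 (log2 fold change -1.75, adjusted p = 0.0066) and Rab44 (-2.43, adjusted p = 0.00063). The median log2 fold change of all genes was -0.06, and 0.03 with total counts. Over all genes 3720 were higher and 4594 lower, and 3681 and 3247 when each sample needed 10 counts.

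Tumors and benign samples came from different mice, and same-numbered samples did not deviate together (correlations of deviations -0.12 to 0.10), so the numbers do not pair them. With the replicate number as a block 11 Rabs were higher and 10 lower, and Rab11a, Rab11b, Rab24, Rab28 and Rab40c lost their calls.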
